A study of Mus musculus with 9 samples.

Results

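Rab GTPases are small membrane-bound GTPases, and the mouse genes named Rab followed by a number were followed here across 9 RNA-seq libraries of fibroblasts given double-stranded DNA, double-stranded RNA or carrier alone. The genes were chosen by symbol alone: a protein-coding gene of the GENCODE M21 annotation (build GRCm38) whose symbol is Rab, a number and at most 1 letter and 1 further digit. The rule found 59 genes, and all 59 had a row among the 46603 genes in the count files. The cells were mouse embryonic fibroblasts of the BALB/c strain, taken from embryos of day 10.5 and carrying a knockout of the β-actin gene Actb. Each group had 3 libraries. Synthetic double-stranded DNA, poly(dA:dT), was given to one group and its RNA counterpart, poly(I:C), to another, each at 10 µg/ml over 6 h with Lipofectamine 2000 in Opti-MEM medium. The mock group received the transfection reagent alone. All 9 libraries therefore carried the Actb knockout and the reagent, and no wild-type or untreated cells were analysed here. The sources used here do not say whether the 3 libraries of a group came from separate cultures, so p-values measure the spread between these libraries, which may be technical.

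Rab proteins cycle between a GDP-bound form held in the cytosol and a GTP-bound form on a membrane. Exchange factors load GTP, GTPase-activating proteins end the active state, and effectors such as tethers, motors and sorting adaptors bind the active form, so each Rab marks its own compartment. In fibroblasts they direct traffic between the endoplasmic reticulum and Golgi, endocytosis, recycling, delivery to lysosomes, autophagy and secretion, the routes that also carry transfected nucleic acid, innate immune receptors and secreted cytokines.

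Library totals lay between 16082772 and 29219797 counts. Counts on Actb, 565 to 924 per library, were 33.3 ± 1.29 CPM (counts scaled to a common library size; SD, n = 3) in mock and passed no test between groups by edgeR's quasi-likelihood test (adjusted p = 0.0613 with poly(dA:dT) and 0.52 with poly(I:C)). The interferon-stimulated gene Ifit1 stood at 1.29 ± 0.0611 CPM in mock, 124 ± 0.793 with poly(dA:dT) and 1176 ± 25.2 with poly(I:C). Fibroblast markers, 12 genes including collagens and vimentin, summed to 7576 to 7742 CPM in mock, 7296 to 7418 with poly(dA:dT) and 6486 to 6784 with poly(I:C), and 8 of the 10 tested fell after each mimic. Macrophage markers summed to at most 7.15 CPM with Ptprc and Tyrobp at 0, and epithelial, neural and melanocyte markers summed to at most 10.6, 46.9 and 8.1 CPM. Of their tested genes, 1 of 4 macrophage, 2 of 3 epithelial, 1 of 2 melanocyte and 0 of 3 neural markers rose after poly(I:C), and 2, 1, 1 and 1 of them fell. Endothelial markers summed to 0.789 to 1.11 CPM in mock, 2.74 to 3.25 with poly(dA:dT) and 4.65 to 4.83 with poly(I:C), with Tie1 and Emcn at 0. The 3 tested were all called higher. Genes this low in mock can have enough counts to be tested through the treated libraries alone, so these calls are not read further. The mitochondrial share of counts was 0.317% to 0.323% in mock, 0.259% to 0.263% with poly(dA:dT) and 0.42% to 0.44% with poly(I:C). The part of these markers and of the mitochondrial share in the Rab results was not tested. In bulk RNA, fewer cells of a type and less RNA per cell cannot be told apart.

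Of the 59 Rab genes, 48 had enough counts to be tested. The other 11, Rab3c, Rab9b, Rab17, Rab19, Rab25, Rab26, Rab37, Rab38, Rab39, Rab42 and Rab44, held at most 21 counts in any library. Several of these are known from specialised cells: Rab17 and Rab25 from epithelia, Rab38 from pigment cells, and Rab3c, Rab26 and Rab37 from neurons and secretory cells.

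Levels per length were taken in RPKM (reads per kilobase of the union of M21 exons, scaled to library size as CPM is). The highest in mock was Rab1b, which serves transport from the endoplasmic reticulum to the Golgi, at 136 ± 2.49 (SD, n = 3). Next came Rab7, the late endosome and lysosome Rab, at 119 ± 1.78, and Rab5c, an early endosome Rab, at 110 ± 0.411. Rab2a (107) and Rab1a (67.3) followed, and the mock libraries of these 5 genes did not overlap from 1 gene to the next. Further down, neighbours such as Rab34 (54) and Rab35 (53.6), or Rab12 (34.5) and Rab5b (34), overlapped between libraries. The lowest of the tested members were Rab15, Rab43, Rab4b, Rab33a and Rab2b, all under 1 RPKM. Rab2b, Rab4b and Rab43 share 64%, 65% and 75.4% of exon bases with other genes, so their levels are uncertain. Levels of the tested members spanned 136 to 0.242 RPKM. This order depends on the annotated exon lengths. In CPM Rab14 was the highest in mock, at 320 ± 1.74 against 308 ± 5.66 for Rab1b. Its annotated exons cover 13589 bases against 2272 for Rab1b, and its level was 23.6 RPKM.

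**Figure D1:**
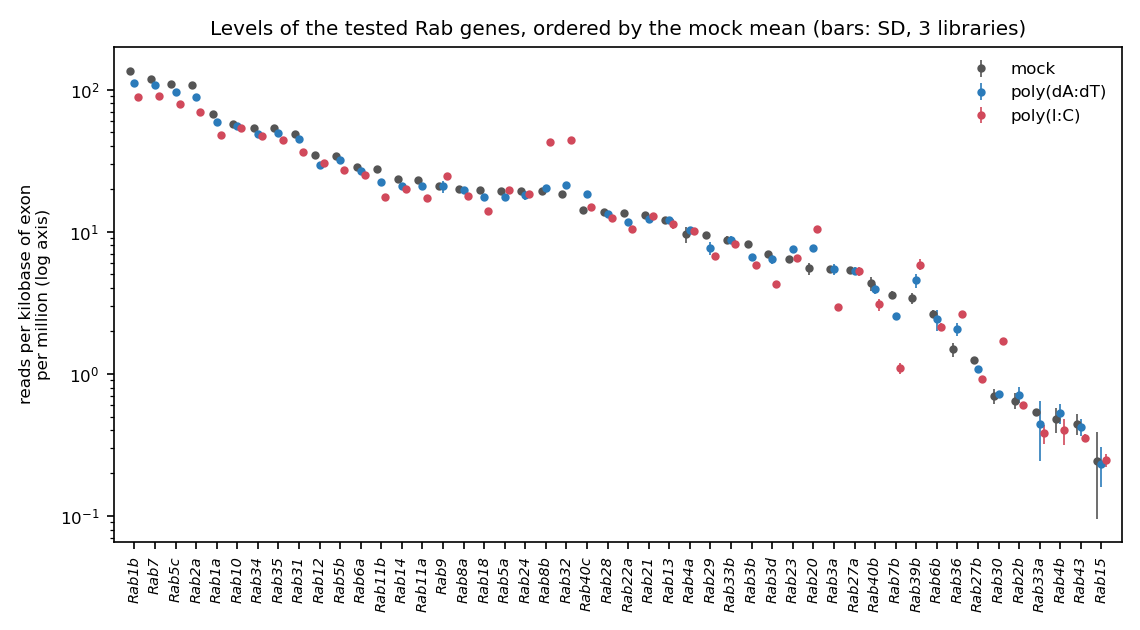
Mean level of each tested Rab gene in RPKM (log axis) with SD over 3 libraries, ordered by the mock mean, for mock, poly(dA:dT) and poly(I:C). Rab1b, Rab7, Rab5c and Rab2a lead at 136 to 107 RPKM in mock, and Rab8b and Rab32 after poly(I:C) stand above their neighbours in this order.

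The Rab share of all counts was lower after both mimics. The 59 genes took 0.387% to 0.391% of counts in mock, 0.371% to 0.376% with poly(dA:dT) and 0.355% to 0.359% with poly(I:C), without overlap between groups. On the composition-normalised scale their sum was 4065 ± 16.1 CPM in mock, 3706 ± 28.1 with poly(dA:dT) and 3453 ± 22.1 with poly(I:C) (SD, n = 3). CPM is a share of each library, so these values describe Rab transcripts relative to the other transcripts of the cell.

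After poly(I:C) most of the tested Rab genes were lower and a small set was clearly higher. Against mock, 27 of the 48 tested members fell (56.2%) and 7 rose (14.6%), where called means an adjusted p under 0.05 from edgeR's quasi-likelihood test over all 14176 tested genes. Among all tested genes 36.3% fell and 39.8% rose, so the members stood above that share for falls and below it for rises. The median log2 fold change was -0.22 over the 48 members and 0.04 over all tested genes. The risers were Rab8b, Rab9, Rab20, Rab30, Rab32, Rab36 and Rab39b. Of these, 6 rose at least 1.5-fold (12.5% of members, against 21.7% of all tested genes) and 6 members fell at least 1.5-fold (12.5% against 8.18%): Rab7b, Rab3a, Rab3d, Rab11b, Rab2a and Rab1b. Rab30, Rab32 and Rab8b rose at least 2-fold (6.25% against 13.1% of all tested genes) and Rab7b fell at least 2-fold (2.08% against 1.04%).

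The changes after poly(dA:dT) were smaller, with a median absolute log2 fold change of 0.14 over the members, against 0.36 after poly(I:C) (0.18 and 0.39 over all tested genes). Against mock, 22 members fell (45.8%, against 26.2% of all tested genes) and 7 rose (14.6%, against 26.6%). No member changed by 1.5-fold, where 7.59% of all tested genes were called and at least 1.5-fold higher and 0.36% as far lower, and 3.84% and 0.0635% passed 2-fold up and down. The largest rise was that of Rab20 (1.39-fold) and the largest fall that of Rab7b (1.43-fold). The median log2 fold change was -0.10 over the members and 0.01 over all tested genes.

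Scaling bears on these counts. With total counts in place of composition factors, which moved the median of all tested genes after poly(I:C) from 0.04 to 0.15 and after poly(dA:dT) from 0.01 to 0.08 on the log2 scale, 22 members fell and 11 rose after poly(I:C), and 14 fell and 7 rose after poly(dA:dT). The higher share among called members was then 33.3% in each comparison, in place of 20.6% after poly(I:C) and 24.1% after poly(dA:dT). Over all called genes the same scaling moved the higher share from 52.4% to 62.2% after poly(I:C) and from 50.3% to 67.7% after poly(dA:dT).

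The comparisons of each mimic with mock share the mock libraries, so their agreement is given only as each one's values. Of the members, 5 rose in both comparisons (Rab8b, Rab20, Rab32, Rab36 and Rab39b), 20 fell in both, and none was called in opposite directions. These joint counts were not made over all tested genes, so they are not read as a trait of the Rab genes. Rab30 and Rab9 rose after poly(I:C) alone by call, and Rab40c and Rab23 after poly(dA:dT) alone.

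The direct comparison of poly(I:C) with poly(dA:dT) tests these differences. In it 8 members were higher (16.7%, against 31.3% of all tested genes) and 23 lower (47.9%, against 32.1%). Rab30, Rab8b and Rab32 were at least 2-fold higher after poly(I:C), 6.25% of members against 7.62% of all tested genes, and no other member was 1.5-fold higher (12.5% of all tested genes were). Rab7b was at least 2-fold lower (2.08% against 0.409%), and Rab3a joined it at 1.5-fold (4.17% of members against 2.41%). The median was -0.17 over the members and 0.00 over all tested genes.

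**Figure D2:**
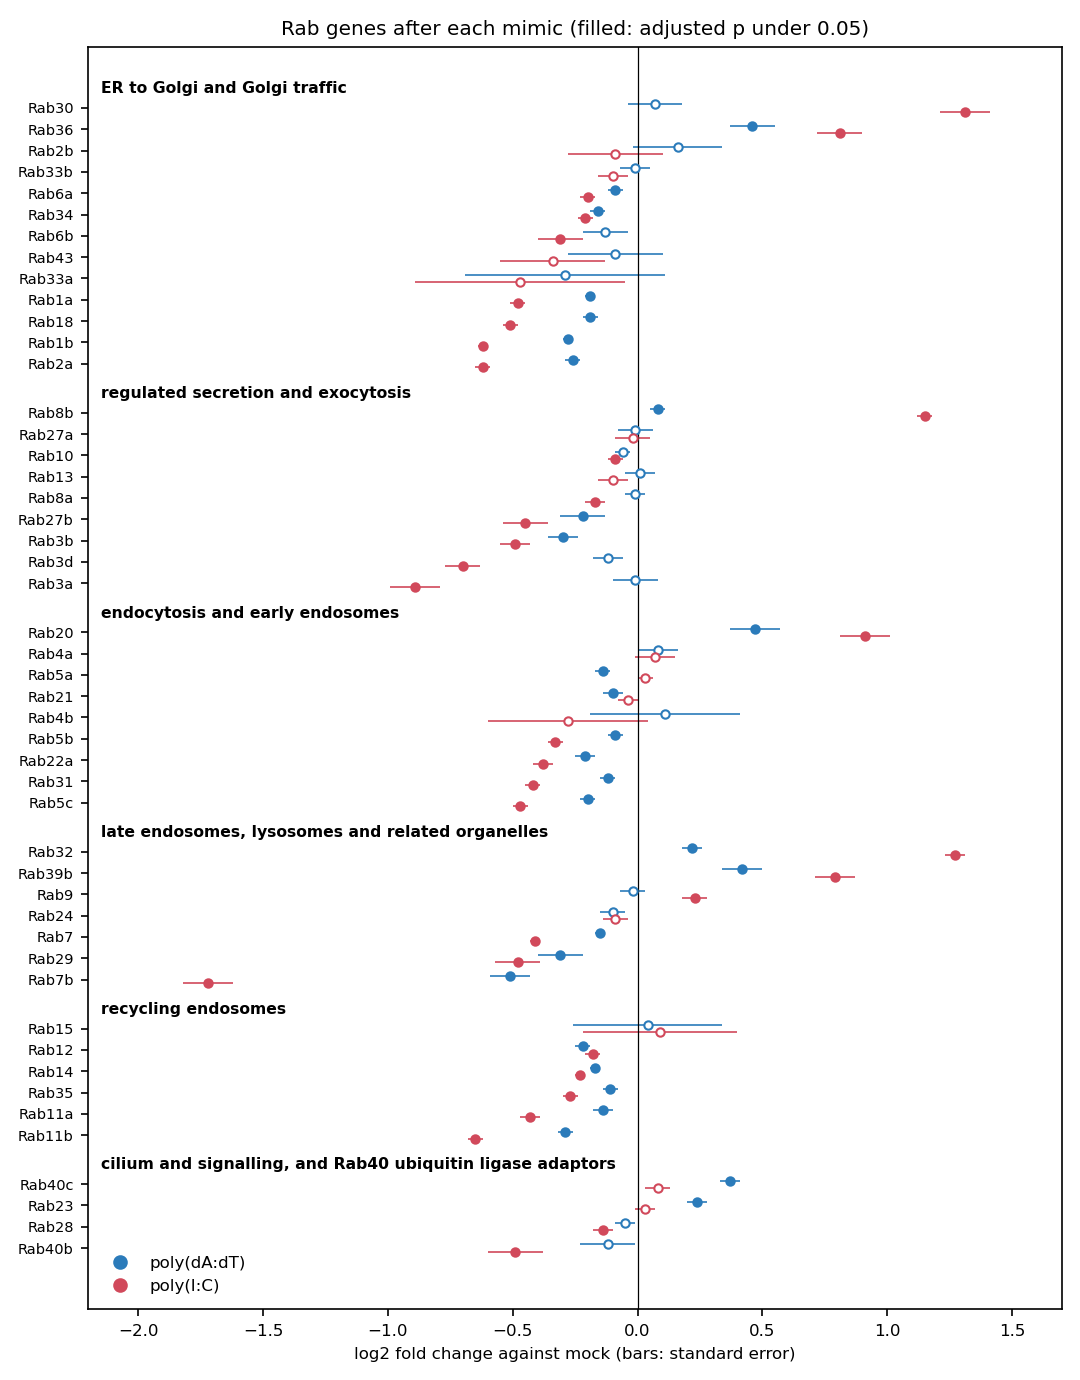
Log2 fold change of each tested Rab gene against mock with its standard error, for poly(dA:dT) and poly(I:C), grouped by the compartment each Rab serves; filled points passed an adjusted p under 0.05. Rab30, Rab32 and Rab8b lie right of 1 and Rab7b left of -1 after poly(I:C), while all poly(dA:dT) points lie between -0.51 and 0.47.

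Upstream stretches of 6 called members are shown so that their letters can be set beside their direction; they were chosen after the values were seen. A RefSeq window of 250 bases before to 50 after a gene start (build GRCm38.p6) was held for 48 of the 59 members, and not for Rab30, Rab36, Rab7b and Rab2a. Rab3a, with 2 windows, and Rab1b are not shown. Below are the upstream bases of Rab8b, Rab32, Rab20 and Rab39b, which rose, and of Rab3d and Rab11b, which fell. All are on the minus strand and are written 5′ to 3′ in gene orientation, and each stops at or before the M21 gene start. Capitals mark matches on either strand to an interferon-response core (GAAANNGAA), an NF-kB site (GGGANTTTC), a lysosomal-gene core (CACGTGAC), an AP-1 site (TGANTCA) or a GC box (GGGCGG). The last 2 motifs were added after the windows had been read.

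Rab8b chr9:66919706-66919955: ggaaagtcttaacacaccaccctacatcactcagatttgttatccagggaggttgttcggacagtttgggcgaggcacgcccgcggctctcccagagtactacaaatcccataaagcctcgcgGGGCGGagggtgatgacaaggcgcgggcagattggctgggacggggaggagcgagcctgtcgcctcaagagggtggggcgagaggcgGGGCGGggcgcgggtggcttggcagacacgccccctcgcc

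Rab32 chr10:10558266-10558457: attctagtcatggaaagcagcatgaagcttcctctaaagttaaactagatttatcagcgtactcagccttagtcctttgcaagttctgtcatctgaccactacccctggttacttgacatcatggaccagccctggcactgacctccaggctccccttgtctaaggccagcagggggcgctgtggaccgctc

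Rab20 chr8:11478711-11478890: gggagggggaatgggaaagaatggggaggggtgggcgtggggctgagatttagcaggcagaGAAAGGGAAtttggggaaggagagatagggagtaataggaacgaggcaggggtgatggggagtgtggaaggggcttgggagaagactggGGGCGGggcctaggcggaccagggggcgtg

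Rab39b chrX:75578232-75578481: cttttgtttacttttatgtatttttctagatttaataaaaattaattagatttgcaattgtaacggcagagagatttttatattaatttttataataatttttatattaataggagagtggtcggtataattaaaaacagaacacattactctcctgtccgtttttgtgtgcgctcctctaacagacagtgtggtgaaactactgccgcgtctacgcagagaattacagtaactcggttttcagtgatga

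Rab3d chr9:21918193-21918433: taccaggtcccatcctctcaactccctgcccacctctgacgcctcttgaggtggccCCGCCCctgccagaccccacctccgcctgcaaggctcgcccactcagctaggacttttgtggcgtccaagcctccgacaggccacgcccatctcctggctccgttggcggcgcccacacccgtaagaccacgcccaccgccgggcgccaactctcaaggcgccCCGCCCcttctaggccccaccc

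Rab11b chr17:33760531-33760736: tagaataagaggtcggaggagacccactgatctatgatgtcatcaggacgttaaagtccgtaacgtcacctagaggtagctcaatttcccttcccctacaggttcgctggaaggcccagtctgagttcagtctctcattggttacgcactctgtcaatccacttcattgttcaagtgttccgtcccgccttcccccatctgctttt

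Rab20, a riser in both comparisons, held the match GAAAGGGAA, whose first base lies 189 bases and last base 181 bases before the RefSeq start, and a GC box 100 to 95 bases before it. Rab8b and Rab3d held 2 GC boxes each, although one rose and the other fell. Rab32, Rab39b and Rab11b held none of the 5 motifs in the printed stretch. Base composition also differed, from 31.6% G and C in Rab39b to 69.3% in Rab3d.

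Over the upstream 250 bases, the interferon-response core was found in 3 of 48 members (6.25%; Rab19, Rab20 and Rab40b) and in 8.18% of all 27025 genes with a window. Rab19 was not tested and Rab40b fell after poly(I:C). The NF-kB letters were in none of the 48 members and in 1.11% of genes. The lysosomal-gene core was in Rab21 and Rab5a (4.17% against 2.11%), and the AP-1 letters in Rab15 and Rab34 (4.17% against 7.82%). The GC box was in 36 of 48 members (75% against 35.4%), and the median G and C content of member windows was 61.2% against 52.7% of all windows. No limit to protein-coding or tested genes was put on the 27025 genes. These differences are therefore not read as a trait of the Rab genes. Overlap between the searched motifs was not removed, and a match describes letters only.

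The Rabs of secretory-pathway traffic at the endoplasmic reticulum and Golgi included several abundant members that fell and 2 that rose. After poly(I:C), 7 of the 13 tested fell (36.3% of all tested genes did), 2 rose (39.8% did) and 4 were not called. The median log2 fold change was -0.31. After poly(dA:dT), 6 fell (26.2% of all tested genes), 1 rose (26.6%) and 6 were not called, with a median of -0.13. With total counts 5 fell after poly(dA:dT), the call of Rab6a being lost, and 6 after poly(I:C), that of Rab6b being lost. Of the 14176 tested genes, 2389 and 4072 then fell. Their summed level was 1230 ± 5.68 CPM in mock, 1072 ± 7.17 with poly(dA:dT) and 909 ± 7.36 with poly(I:C).

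Rab1b, at 311, 312 and 302 CPM in the mock libraries, stood at 259, 255 and 250 with poly(dA:dT) and 199, 201 and 202 with poly(I:C). No library of 1 group overlapped another group. Most members with per-library values were chosen as called and without overlap with mock. Their separation from mock, here and below, therefore adds no support to the calls. The log2 fold change was -0.28 (SE 0.02, adjusted p = 8.05e-22) after poly(dA:dT) and -0.62 (SE 0.02, adjusted p = 1.15e-55) after poly(I:C), and -0.34 (SE 0.02, adjusted p = 1.86e-27) between the mimics. Rab2a, which acts at the Golgi and in lysosome maturation, fell alike from 224, 232 and 228 CPM to 185, 187 and 198 and to 151, 147 and 146 CPM, a log2 fold change of -0.62 (SE 0.03) after poly(I:C). Rab1a, the paralogue of Rab1b, fell by 0.48 on the log2 scale after poly(I:C), and Rab18, an endoplasmic reticulum and lipid droplet Rab, by 0.51. Rab18 read 138, 128 and 141 CPM in mock, 117, 119 and 121 with poly(dA:dT) and 94.4, 96.8 and 94.2 with poly(I:C), again without overlap. Rab6a, of Golgi traffic, and Rab34, linked to cilia and macropinocytosis, moved less (-0.20 and -0.21 after poly(I:C)). The smaller fall of Rab6a after poly(dA:dT) (log2 -0.09, adjusted p = 0.0146) lost its call when mock replicate 2 (adjusted p = 0.0535), poly(dA:dT) replicate 2 (0.115) or poly(dA:dT) replicate 3 (0.0773) was left out, and with upper-quartile factors or total counts.

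Rab30, a Golgi Rab encoded on chromosome 7 (chr7:92741603-92844535, plus strand), gave the largest rise of all tested members. Its mock libraries read 6.44, 6.02 and 7.63 CPM, those after poly(dA:dT) 6.95, 7.1 and 6.83, and those after poly(I:C) 17.4, 16.2 and 15.6. The poly(dA:dT) libraries lay inside the mock range and the poly(I:C) libraries far above it. The rise after poly(I:C) was 2.47-fold (log2 1.31, SE 0.10, adjusted p = 3.76e-27), the change after poly(dA:dT) 1.05-fold (95% interval 0.902 to 1.22, adjusted p = 0.632), and the difference between the mimics 2.36-fold (adjusted p = 7.62e-25).

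Rab36 (chr10:75037058-75054748, plus strand), a Golgi-associated relative of Rab34 linked to the positioning of late endosomes and lysosomes, rose in steps. It read 9.42, 10.1 and 8.05 CPM in mock, 13.3, 11.1 and 13.7 with poly(dA:dT) and 16, 16 and 16.7 with poly(I:C). The groups did not overlap. Rab36 rose 1.37-fold after poly(dA:dT) (adjusted p = 8.08e-06) and 1.75-fold after poly(I:C) (adjusted p = 4.16e-15), and was 1.27-fold higher after poly(I:C) than after poly(dA:dT) (adjusted p = 0.000197).

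In the secretion and exocytosis class Rab8b rose and 6 of the 9 tested members fell after poly(I:C), or 4 of 9 with total counts. Of the 14176 tested genes 36.3% fell and 39.8% rose after poly(I:C), and 4072 genes fell with total counts. After poly(dA:dT), Rab3b and Rab27b fell and Rab8b was called higher, where 26.2% of all tested genes fell and 26.6% rose. The summed level of this class was 519 ± 6.6 CPM in mock, 506 ± 3.87 with poly(dA:dT) and 575 ± 11.8 with poly(I:C), but without Rab8b it was 428 ± 3.01, 410 ± 3.1 and 374 ± 8.48 CPM, so the higher sum rested on that 1 gene.

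Rab8b (chr9:66843664-66919687, minus strand) directs vesicles from the Golgi and recycling compartments to the plasma membrane and binds the autophagy adaptor optineurin. Its libraries read 87.7, 88.8 and 96.6 CPM in mock, 94, 94.8 and 99.1 with poly(dA:dT) and 205, 201 and 198 with poly(I:C). The mock and poly(dA:dT) libraries overlapped, and the poly(I:C) libraries stood clear of both. Rab8b rose 2.22-fold after poly(I:C) (log2 1.15, SE 0.03, adjusted p = 3.4e-77). The 1.06-fold difference after poly(dA:dT) passed the test (adjusted p = 0.0305) but lost its call in 6 of 14 alternative settings of the analysis, among them those leaving out mock replicate 1 (adjusted p = 0.243), mock replicate 2 (0.147) and poly(dA:dT) replicate 3 (0.217).

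Its paralogue Rab8a, a regulator of the same route and of the primary cilium, fell by 0.17 on the log2 scale after poly(I:C) (SE 0.04, adjusted p = 1.58e-05), a call lost with total counts. The ratio of Rab8b to Rab8a in RPKM was 0.96 ± 0.0516 in mock (SD, n = 3), 1.02 ± 0.0181 with poly(dA:dT) and 2.39 ± 0.0963 with poly(I:C). Rab8b went from level with Rab8a to the larger part of Rab8 transcripts after poly(I:C).

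**Figure D3:**
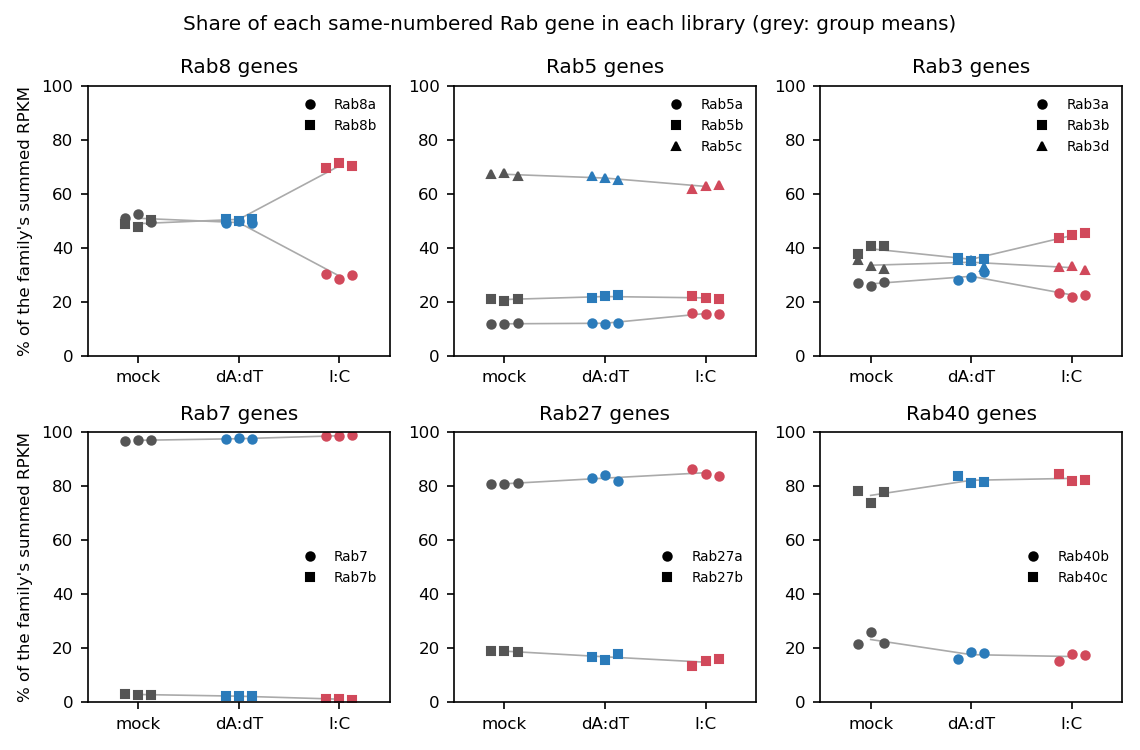
Share of each gene in the summed RPKM of its same-numbered family, in percent, for every library of mock, poly(dA:dT) and poly(I:C), with grey lines joining group means. Rab8b and Rab8a separate after poly(I:C), while the Rab5, Rab7, Rab27 and Rab40 families keep their order.

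The 3 tested Rab3 genes, which tether regulated secretory vesicles, fell after poly(I:C). Rab3a (chr8:70754679-70758677, plus strand) read 12.5, 11.7 and 12.5 CPM in mock, 10.9, 12.7 and 12.8 with poly(dA:dT) and 6.98, 6.46 and 6.24 with poly(I:C). Mock and poly(dA:dT) overlapped and poly(I:C) lay below both. The log2 fold change was -0.89 (SE 0.10, adjusted p = 1.05e-14) after poly(I:C), while the fold after poly(dA:dT) was 0.995 (95% interval 0.882 to 1.12, adjusted p = 0.96).

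Rab3d (chr9:21907491-21918192, minus strand) showed a like pattern, at 31, 28.4 and 27.8 CPM in mock, 26.1, 29 and 25.6 with poly(dA:dT) and 18.6, 18.4 and 16.6 with poly(I:C). Only the poly(I:C) libraries stood apart, and its log2 fold change there was -0.70 (SE 0.07, adjusted p = 3.59e-19). After poly(dA:dT) it was -0.12 (adjusted p = 0.0987), called only without poly(dA:dT) replicate 2 (-0.18, adjusted p = 0.0263). Rab3b fell in both comparisons, from 27.6, 29.3 and 29.5 CPM to 22.3, 24.2 and 23.4 after poly(dA:dT) (log2 -0.30, adjusted p = 1.05e-05) and to 20.7, 20.8 and 19.9 after poly(I:C) (log2 -0.49, adjusted p = 1.06e-11). Of the other members of the class, Rab27b, of secretory lysosome docking, fell by 0.45 after poly(I:C), and Rab10, of exocytic recycling, by 0.09. With total counts the value for Rab10 was 0.02 (adjusted p = 0.51). The fall of Rab27b after poly(dA:dT) (log2 -0.22, adjusted p = 0.0264) lost its call when mock replicate 1 (adjusted p = 0.0528), mock replicate 3 (0.0716) or poly(dA:dT) replicate 2 (0.105) was left out. Rab13 and Rab27a, also of exocytosis, did not pass the test in any comparison (Rab13 was called lower after poly(I:C) only without poly(I:C) replicate 1, adjusted p = 0.0275), and for Rab27a the fold after poly(I:C) was 0.983 (95% interval 0.894 to 1.08).

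Among the Rabs of endocytosis and early endosomes, 6 of 9 tested members fell with poly(dA:dT) and 4 with poly(I:C), and Rab20 rose after both. Over all tested genes 26.2% and 36.3% fell, and 26.6% and 39.8% rose. With total counts 2 of the 9 fell after poly(dA:dT), Rab5c and Rab22a, the calls of Rab5a, Rab5b, Rab21 and Rab31 being lost, and the 4 falls after poly(I:C) held. Their summed level was 860 ± 5.33 CPM in mock, 782 ± 3.37 with poly(dA:dT) and 703 ± 6.78 with poly(I:C). Rab5c, which with Rab5a and Rab5b drives early endosome fusion, read 240, 242 and 240 CPM in mock, 215, 208 and 206 with poly(dA:dT) and 168, 178 and 176 with poly(I:C). The groups did not overlap and the log2 fold changes were -0.20 (SE 0.03) and -0.47 (SE 0.03).

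Rab5a followed another order. It read 101, 101 and 104 CPM in mock, 93.8, 91.1 and 92.5 with poly(dA:dT) and 103, 105 and 105 with poly(I:C). Only the poly(dA:dT) libraries stood apart, and Rab5a was higher after poly(I:C) than after poly(dA:dT) (log2 0.17, SE 0.03, adjusted p = 3.22e-06). With total counts its fall after poly(dA:dT) was not called (adjusted p = 0.0868) and its value after poly(I:C) was called higher (log2 0.15). The ratio of Rab5a to Rab5c in RPKM was 0.176 ± 0.00409 in mock, 0.184 ± 0.00322 with poly(dA:dT) and 0.25 ± 0.00576 with poly(I:C). Rab22a, of endosomal sorting, and Rab31, of traffic between the Golgi and endosomes, fell by 0.38 and 0.42 on the log2 scale after poly(I:C). Rab4a, of rapid recycling, passed no test except after poly(I:C) with total counts, where it was called higher, with a fold after poly(I:C) of 1.05 (95% interval 0.945 to 1.16). Rab21, of integrin endocytosis, was called lower after poly(dA:dT) alone (log2 -0.10, adjusted p = 0.0387), a call lost when mock replicate 1 (adjusted p = 0.141), mock replicate 2 (0.194), poly(dA:dT) replicate 1 (0.117) or poly(dA:dT) replicate 3 (0.108) was left out.

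Rab20 (chr8:11453518-11478710, minus strand), a Rab of endosomes, macropinosomes and phagosomes, read 8.31, 6.81 and 7.89 CPM in mock, 10.2, 10.4 and 11.3 with poly(dA:dT) and 13.9, 14.1 and 15.4 with poly(I:C). Each group stood above the one before without overlap. Rab20 rose 1.39-fold after poly(dA:dT) (adjusted p = 1.71e-05) and 1.87-fold after poly(I:C) (log2 0.91, SE 0.10, adjusted p = 1.46e-16). A gene on the opposite strand, E230013L22Rik, covers 25.6% of the exon bases of Rab20 and held 22, 29 and 68 counts over the 3 libraries of mock, poly(dA:dT) and poly(I:C). The library kit does not mark strand, so reads of the shared bases cannot be assigned to either gene.

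The late endosome and lysosome class held the largest fall and the second largest rise. Of 7 tested members, 3 rose and 3 fell after poly(I:C), and 2 rose and 3 fell after poly(dA:dT). Among all tested genes 39.8% rose and 36.3% fell after poly(I:C), and 26.6% rose and 26.2% fell after poly(dA:dT). The class sum was 473 ± 3.96 CPM in mock, 442 ± 13.1 with poly(dA:dT) and 454 ± 6.72 with poly(I:C). Without Rab32 it was 430 ± 4.97, 392 ± 11.5 and 351 ± 6.3.

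Rab32 (chr10:10545002-10558265, minus strand) sorts cargo to lysosome-related organelles, acts at mitochondria and in autophagy, and is recruited to vacuoles that hold bacteria. Its libraries read 43.7, 41.3 and 43.1 CPM in mock, 51.2, 49.8 and 49 with poly(dA:dT) and 104, 104 and 101 with poly(I:C). The 3 groups did not overlap. Rab32 rose 1.17-fold after poly(dA:dT) (adjusted p = 4.07e-06) and 2.41-fold after poly(I:C) (log2 1.27, SE 0.04, adjusted p = 2.14e-67), and was 2.06-fold higher after poly(I:C) than after poly(dA:dT) (adjusted p = 4.09e-57). Rab38, its paralogue, held at most 3 counts in a library and was not tested.

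Rab39b (chrX:75572046-75578231, minus strand), a Rab known from neurons and from autophagy, read 10.8, 12.8 and 11.3 CPM in mock, 15.1, 17.4 and 14 with poly(dA:dT) and 20.7, 21.2 and 17.9 with poly(I:C). The groups did not overlap, and it rose 1.34-fold (adjusted p = 8.46e-06) and 1.73-fold (adjusted p = 1.45e-16). The opposite-strand gene Gm15063 covers 18.6% of its exon bases and held 6, 5 and 0 counts in the 3 groups. Rab9, of transport from late endosomes to the Golgi, rose 1.17-fold after poly(I:C) from 35.8, 36.3 and 38.5 CPM to 43.1, 44.9 and 40.4 (adjusted p = 6.39e-05). After poly(dA:dT) it read 40.5, 34.4 and 34.1, on both sides of the mock libraries.

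Rab7b (chr1:131688695-131715439, plus strand), which serves transport from late endosomes to the Golgi, gave the largest fall of all tested members after each mimic. It read 17.7, 16.5 and 15.9 CPM in mock, 12.1, 11.2 and 12 with poly(dA:dT) and 5.19, 5.39 and 4.56 with poly(I:C). Each group lay below the one before without overlap. The log2 fold change was -0.51 (SE 0.08, adjusted p = 4.75e-08) after poly(dA:dT) and -1.72 (SE 0.10, adjusted p = 2.69e-36) after poly(I:C), and -1.21 (SE 0.11, adjusted p = 1.19e-20) between the mimics.

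Rab7, the abundant paralogue that directs late endosome to lysosome traffic, fell less, from 312, 316 and 307 CPM in mock to 286, 279 and 276 with poly(dA:dT) and 242, 225 and 239 with poly(I:C) (log2 -0.15 and -0.41). The ratio of Rab7 to Rab7b in RPKM was 33.1 ± 1.6 in mock, 42.3 ± 1.81 with poly(dA:dT) and 83.1 ± 9.53 with poly(I:C). Rab29, a Golgi and lysosome Rab that recruits the kinase LRRK2, fell from 13.7, 14.2 and 13.8 CPM to 11.5, 12.2 and 10 after poly(dA:dT) (log2 -0.31, adjusted p = 0.00164) and 9.89, 9.74 and 10.3 after poly(I:C) (log2 -0.48, adjusted p = 8.28e-07). Rab24, of autophagy, passed no test, and 62.4% of its exon bases are shared with Prelid1 on the opposite strand, so its values are uncertain. The same holds for Rab2b, Rab4b and Rab43, which share 64%, 65% and 75.4% of exon bases with other genes and passed no test.

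**Figure D4:**
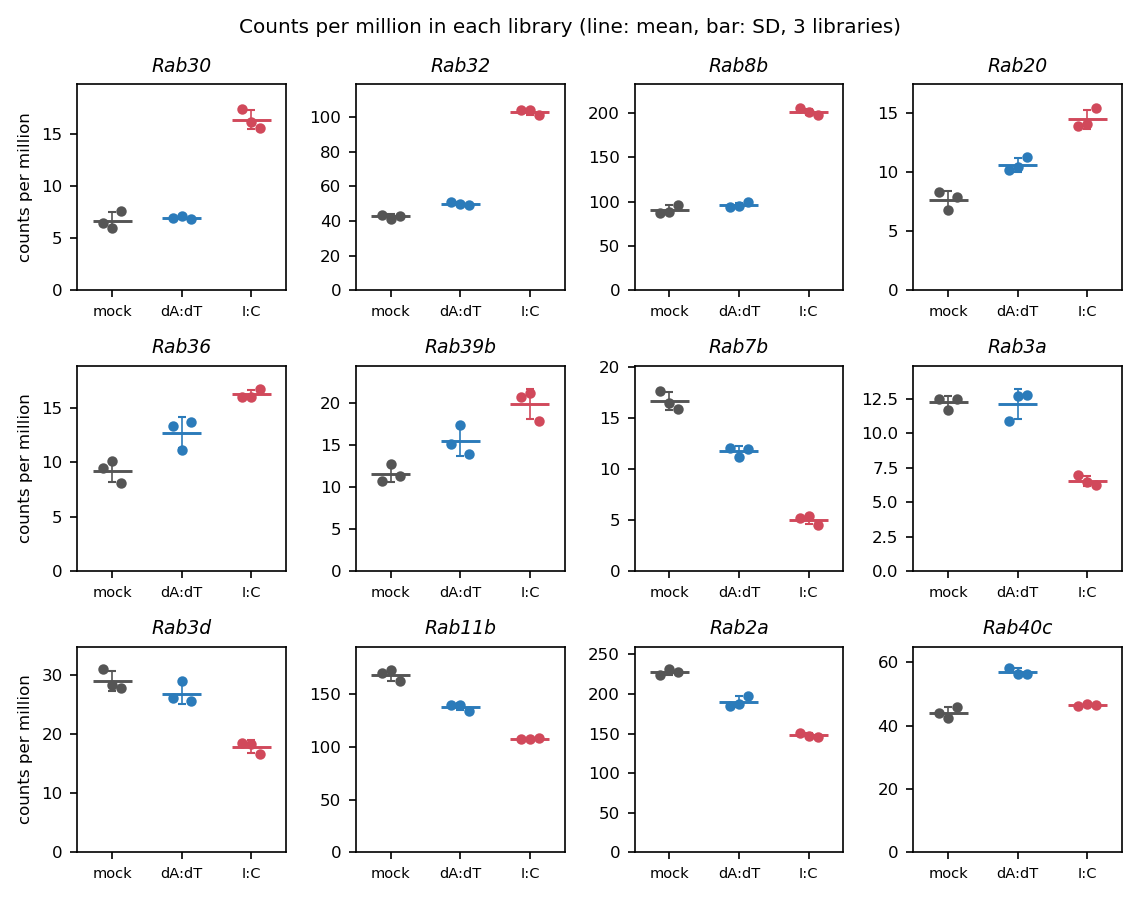
CPM in each library for 12 Rab genes, with the mean and SD of 3 libraries per group, on axes from 0. Rab30, Rab32 and Rab8b separate only or mainly after poly(I:C), Rab20, Rab36 and Rab39b rise in both groups, Rab7b falls in both, and Rab40c rises after poly(dA:dT).

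Of the 6 tested Rabs of recycling endosomes, 5 fell in each comparison with mock and none rose. Over all tested genes 26.2% (DNA mimic) and 36.3% (RNA mimic) fell. With total counts Rab11a (adjusted p = 0.145) and Rab35 (adjusted p = 0.291) lost their calls after poly(dA:dT), which left 3 of 6, and 4 of 6 fell after poly(I:C). Their sum was 815 ± 2.55 CPM in mock, 716 ± 10.2 with poly(dA:dT) and 650 ± 10.9 with poly(I:C). Rab11b, of the perinuclear recycling compartment, read 170, 173 and 162 CPM in mock, 140, 140 and 134 with poly(dA:dT) and 107, 107 and 108 with poly(I:C). The groups did not overlap, and the log2 fold changes were -0.29 (SE 0.03, adjusted p = 1.16e-17) and -0.65 (SE 0.03, adjusted p = 4.57e-47). Its paralogue Rab11a fell by 0.14 and 0.43 on the log2 scale. Rab14, of Golgi to endosome traffic, Rab35, of recycling to the plasma membrane, and Rab12, of receptor degradation, fell by 0.23, 0.27 and 0.18 after poly(I:C), the call of Rab12 being lost with total counts. Rab12 was as low after poly(dA:dT) (log2 -0.22), and the difference between the mimics was not called (log2 0.04, adjusted p = 0.318). Rab15 was under 2 CPM and passed no test.

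The last class, of cilium and signalling Rabs and the Rab40 adaptors of ubiquitin ligases, held the members that rose after DNA and not by call after RNA. Rab40c (chr17:25882114-25919727, minus strand) read 44, 42.3 and 45.8 CPM in mock, 58.3, 56.3 and 56.4 with poly(dA:dT) and 46.1, 46.8 and 46.4 with poly(I:C). The poly(dA:dT) libraries stood above both other groups. Rab40c rose 1.3-fold after poly(dA:dT) (log2 0.37, SE 0.04, adjusted p = 3.52e-13), its fold after poly(I:C) was 1.06 (95% interval 0.991 to 1.13, adjusted p = 0.117), and it was lower after poly(I:C) than after poly(dA:dT) (log2 -0.29, SE 0.05, adjusted p = 4.68e-09). Its poly(I:C) value, not called here, passed the test in 3 of 14 alternative settings, with log2 fold changes of 0.11, 0.12 and 0.19.

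Rab23, an antagonist of Hedgehog signalling, followed the same order at 51, 51.2 and 56.4 CPM in mock, 62.5, 62 and 61.8 with poly(dA:dT) and 52.5, 53.2 and 55.3 with poly(I:C). Only the poly(dA:dT) libraries stood apart. It rose by 0.24 on the log2 scale after poly(dA:dT) (SE 0.04, adjusted p = 4.56e-07) and was lower after poly(I:C) than after poly(dA:dT) (log2 -0.21, SE 0.04, adjusted p = 6.98e-06). With total counts it was also called higher after poly(I:C) (log2 0.14, adjusted p = 0.00293). Rab40b fell after poly(I:C), from 7.91, 9.76 and 8.37 CPM to 5.48, 6.59 and 6.48 (log2 -0.49, SE 0.11, adjusted p = 5.85e-05), and read 7.28, 8.43 and 8.22 after poly(dA:dT), which overlapped mock. Rab28, of the cilium, fell by 0.14 after poly(I:C), a call lost with total counts.

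The direction of change went with abundance, among the members and over all tested genes. Of the 16 tested members at 100 CPM or more in mock, 15 fell and none rose in each comparison with mock, with Rab10 uncalled after poly(dA:dT) and Rab5a after poly(I:C). Of all 2755 tested genes at that level, 65.4% fell and 14.3% rose after poly(dA:dT), and 73.4% fell and 18.7% rose after poly(I:C). With total counts 10 of the 16 members fell after poly(dA:dT), the calls of Rab5a, Rab5b, Rab6a, Rab31 and Rab35 being lost, and 13 fell and Rab5a rose after poly(I:C). Of the 9 members under 10 CPM, 3 rose and 1 fell after poly(I:C), while of all 4795 tested genes under 10 CPM 50.3% rose and 10.3% fell. The count filter used all 9 libraries, so a gene low in mock could be tested because it was high after a mimic. This favours rises in the lowest class. The tested members were also more abundant than other genes, with a median of 43.4 CPM in mock against 28.1 over all tested genes, and 33.3% against 19.4% at 100 CPM or more. The part of abundance in the member counts was not tested beyond these shares.

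The genes that load, recycle and bind Rabs were taken from lists by function and did not move as one. Of 7 genes for prenylation and cycling, 4 fell and 2 rose after poly(I:C), and 3 fell and 1 rose after poly(dA:dT). Over all tested genes 36.3% fell and 39.8% rose after poly(I:C), and 26.2% fell and 26.6% rose after poly(dA:dT). Rabac1, a Rab acceptor, fell by 0.62 on the log2 scale after poly(I:C) (from 44.2 ± 1.07 to 28.9 ± 2.79 CPM), and Chml, a Rab escort protein, by 0.39. Gdi2, which holds Rabs in the cytosol, fell by 0.32. The risers were Rabggta and Rabggtb, the subunits of the geranylgeranyl transferase that attaches the lipid anchor (log2 0.29 and 0.30), named after their values were seen.

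Of 34 tested exchange factors, 15 were higher and 9 lower after poly(I:C), and 12 higher and 5 lower after poly(dA:dT). Shares of all tested genes were 39.8% higher and 36.3% lower after poly(I:C), and 26.6% and 26.2% after poly(dA:dT), and the list median after poly(I:C), 0.04, equals that of all tested genes. The named risers were the DENN-domain genes Dennd6b (10.9 ± 0.595 to 27.5 ± 1.22 CPM), Dennd4b (7.02 ± 0.397 to 16.7 ± 1.79 CPM) and St5 (log2 0.69), and Hps4. Hps4, a subunit of the exchange factor for Rab32 and Rab38, went from 23.5 ± 0.85 CPM in mock to 35.8 ± 1.37 with poly(dA:dT) and 46.1 ± 2.47 with poly(I:C) (log2 0.97, SE 0.06, adjusted p = 1.49e-37).

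Of 39 tested GTPase-activating proteins, 13 were higher and 14 lower after poly(I:C), and 13 higher and 6 lower after poly(dA:dT). Shares of all tested genes were 39.8% higher and 36.3% lower after poly(I:C), and 26.6% and 26.2% after poly(dA:dT). Tbc1d2, which acts on Rab7, rose (log2 0.99 after poly(I:C) and 1.23 after poly(dA:dT)), as did Tbc1d31 (0.98 and 0.46). Tbc1d10c rose by 0.68 after poly(I:C), and Tbc1d16 fell by 0.76.

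Of 49 tested effectors, 24 rose and 13 fell after poly(I:C), and 15 rose and 13 fell after poly(dA:dT), where 26.6% of all tested genes rose and 26.2% fell. After poly(I:C) 39.8% of all tested genes rose and 36.3% fell. The median log2 fold change was then 0.16 over the effectors and 0.04 over all tested genes. Myrip, which links Rab27a to myosin motors, went from 0.184 ± 0.123 CPM in mock to 1.29 ± 0.199 after poly(dA:dT) (adjusted p = 3.15e-11) and 7.37 ± 0.454 after poly(I:C) (adjusted p = 5.11e-44). Its mock level is near that of 3 counts in a library, 0.103 to 0.151 CPM, so no fold is given. Genes this low in mock can be tested through the counts of the treated libraries alone. Rab11fip1, an effector of Rab11, rose by 1.17 on the log2 scale after poly(I:C), Optn (optineurin), which binds Rab8, by 0.83, and Sytl4, which binds Rab27 and Rab3, by 0.82.

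The 3 listed enzymes of Rab phosphorylation all rose after each mimic: the kinases Lrrk1 (log2 0.17 after poly(I:C)) and Lrrk2 (0.37), and the phosphatase Ppm1h (0.71). Of all tested genes 39.8% rose after poly(I:C) and 26.6% after poly(dA:dT). Among Rab-like GTPases outside the symbol rule, Rabl2 and Rabl3 rose and Rabl6 and Ift27 fell after poly(I:C).

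Another group of small GTPases was counted the same way. Of 26 tested Arf and Arl genes, several of which recruit vesicle coats, 15 fell and 7 rose after poly(I:C), with a median log2 fold change of -0.21. After poly(dA:dT) 10 fell and 4 rose, with a median of -0.08. Among all tested genes 36.3% fell and 39.8% rose after poly(I:C), and 26.2% fell and 26.6% rose after poly(dA:dT). Whether the Arf and Arl group differs from the Rab genes in its share of calls was not tested.

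**Figure D5:**
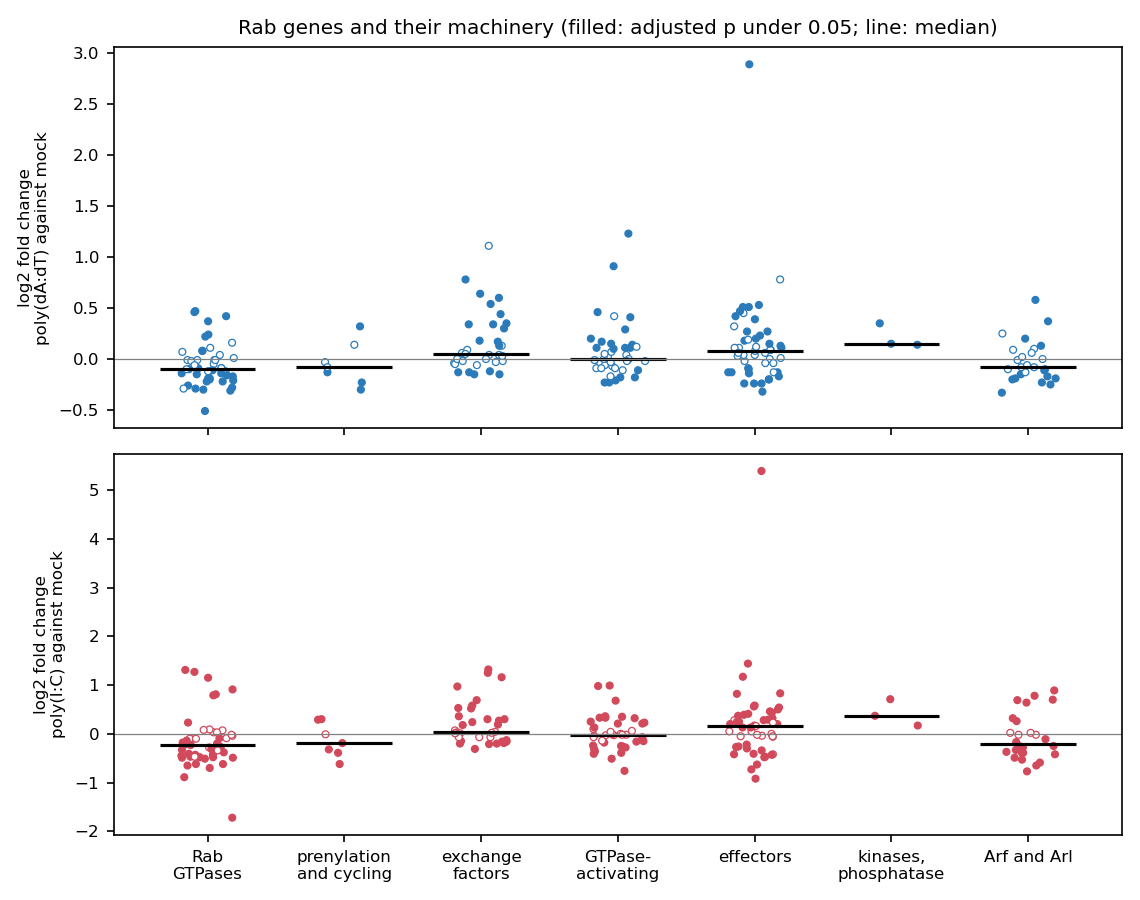
Log2 fold change against mock of each tested gene of the Rab family, of 5 lists of Rab machinery and of the Arf and Arl genes, for poly(dA:dT) (top) and poly(I:C) (bottom); filled points passed an adjusted p under 0.05 and lines are medians. The Rab median lies below 0 in both panels (-0.10 and -0.22) and that of the effectors above 0 after poly(I:C) (0.16).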

How the data were processed

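RNA-seq libraries of total RNA, prepared with a kit that does not mark strand, were analysed from 9 samples in 3 groups. The deposited values are whole-number read counts per Ensembl gene. TopHat2 2.1.0, HTSeq, DESeq2 and GRCm38.p4 are named in the submitters' processing notes, without their settings. Per the deposited files, totals were 16082772 to 29219797 counts, and 3 counts in a library correspond to 0.103 to 0.187 CPM.

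Genes were tested in edgeR 4.0.16 (R 4.3.3) with trimmed-mean (TMM) factors, the filterByExpr filter by group and robust quasi-likelihood tests, 1 fit over all 9 libraries with a mean per group. Benjamini-Hochberg adjustment ran over 14176 genes, and called means an adjusted p under 0.05. RPKM used the union of M21 exons. Standard errors are the log2 fold change over the root of F, and 95% intervals are normal. The fit was checked on simulated counts in which few genes changed, as many up as down. In the data 5647 genes rose and 5140 fell after poly(I:C), so the simulation does not bear on the choice of scaling. Identifiers absent from M21 (512 of 46603) held 0.0588% of counts.

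The members and gene lists were chosen with earlier results of these data known. Per-library values are given for the largest called changes (up to 10 per direction after poly(I:C), 5 after poly(dA:dT)) of at least 1 CPM without overlap, and for the 3 members highest in RPKM. The values of Rab5a, Rab7b's paralogue Rab7 and a few others were added for paralogue comparisons after they had been seen. Up to 4 genes were named per list; some listed genes are not reported here. Alternatives were other factors, DESeq2 1.42.0, other filters, only 2 groups, a replicate block and leaving out each library. Promoter windows came from RefSeq (GRCm38.p6). Replicate pairs differed by more than counting noise (chi-square per degree of freedom 1.64 to 2.1).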

Additional observations from a re-analysis of the deposited data

How the results depend on the processing

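No tested member turned from a called rise to a fall, or the reverse, in the 14 alternatives; values that were not called near 0 did change sign. Of 2007 results for the 48 tested members under alternatives, 1931 kept their call or lack of one, 48 lost a call and 28 gained one; 28 of the losses were after poly(dA:dT), with Rab21 (8 settings), Rab8b (6), Rab6a (5) and Rab27b (4) leading. All 7 members that rose after poly(I:C) did so in all 14 alternatives, as did 22 of the 27 that fell, while after poly(dA:dT) 6 of 7 rises and 14 of 22 falls held throughout. Between the mimics 8 of 8 higher and 19 of 23 lower calls held. With total counts, 14 members fell after poly(dA:dT) (22 with TMM factors) and 11 rose after poly(I:C) (7).

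The member median after poly(dA:dT), -0.10, became -0.12 with DESeq2 size factors and with the DESeq2 Wald test, -0.08 with upper-quartile factors and -0.03 with total counts. It ran from -0.12 to -0.08 without 1 replicate. After poly(I:C), -0.22 became -0.24 with DESeq2 size factors and the DESeq2 Wald test, -0.19 with upper-quartile factors and -0.10 with total counts. It was -0.25 with no filter, taken over the same 48 members. It was -0.16 with at least 50 counts in 3 libraries (45 members) and -0.23 with only the 2 groups. It reached -0.20 without mock replicate 2 or poly(I:C) replicate 3. Between the mimics, -0.17 became -0.13 with total counts, -0.20 with no filter and -0.14 with at least 50 counts, and ran from -0.18 to -0.15 without 1 replicate.

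Replicate numbers are shared between groups, but the deviations of same-numbered libraries correlated by -0.01 to 0.02, so no shared effect was visible. These values cannot show whether same-numbered libraries were prepared together. With a replicate block, 22 members fell and 7 rose after poly(dA:dT), 27 fell and 7 rose after poly(I:C), and 23 were lower and 8 higher between the mimics, the counts found without it.

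Groups of 3 libraries, bulk RNA and counting without strand limit these results, and members under about 1 CPM have wide intervals.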

Other observations

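The 11 Rab genes below the count filter are given as values. Rab42 held 9 counts over the 3 mock libraries, 19 with poly(dA:dT) and 33 with poly(I:C), of which 21 were in a single poly(I:C) library. Rab44 held 4, 14 and 28 counts, with 15 in a single library. Rab3c held 0, 3 and 7 counts. With no filter on low counts these 3 genes were called higher after poly(I:C) by edgeR (adjusted p = 0.00271, 0.000502 and 0.0291), and none of the 11 was called after poly(dA:dT). Rab37 held 20, 21 and 12 counts, Rab25 10, 5 and 14, Rab17 6, 9 and 3, Rab26 5, 7 and 9, and Rab38 4, 5 and 2. Rab9b held 6, 1 and 0 counts, all 6 of the mock counts in 1 library, Rab19 0, 3 and 3, and Rab39 0, 2 and 2.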
